A study of Mus musculus with 7 samples.

Results

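Heat shock proteins of the cytosol and the mitochondria were compared between transplanted tumours of Met1 and DB7, a pair of mouse mammary tumour lines. The set holds HSF1 and 9 of the chaperones whose genes HSF1 is known to induce, 10 listed genes in all. Members were taken by gene symbol, from a list drawn up with earlier results of these data known. Every probe set annotated to a single gene of the list was taken, which gave 19 probe sets of 8 genes among the 22626 non-control probe sets of the array. These were Hspa1b, Hspa8, Hsp90aa1, Hspb1, Hspd1, Hspe1, Dnaja1 and Hsph1. Hsf1 and Hsp90ab1 were not analysed here. Only probe sets above the median of the array on at least 3 of the 7 arrays were tested. Of the 19, 18 passed, so that all 8 genes had at least 1 tested probe set.

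Tumour RNA was measured on 3 Met1 and 4 DB7 arrays, 1-colour arrays by Affymetrix, to compare expression in the absence of any treatment. Met1 and DB7 are known to stem from mammary tumours of mice that carry the polyoma virus middle T oncogene under a mammary tumour virus promoter, DB7 from mice with a mutated form of it, so that both groups share the oncogene but not its form. The labels give no host strain, age or sex. They do not say that the arrays of a line came from different animals, and the spread behind each p-value may therefore be technical in part. The series' design text speaks of tumours of crosses with AKR/J and DBA/2J instead. The labels of the samples were followed.

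Heat shock proteins are chaperones that help other proteins to fold, keep unfolded ones from clumping and pass damaged ones on for degradation. HSF1, held inactive in unstressed cells, binds heat shock elements in the promoters of chaperone genes when unfolded protein accumulates. In many tumours chaperone genes are known to be active without heat. HSP70 proteins work with J domain partners and nucleotide exchange factors, HSP90 with a set of co-chaperones on kinases and receptors, and HSP60 with HSP10 as a folding chamber inside mitochondria.

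Values are on the log2 scale as deposited, and a difference is Met1 minus DB7 with its standard error (SE) from limma. A probe set was called where limma's adjusted p lay under 0.05. The median of an array lay between 6.53 and 6.61. Across the tested probe sets, arrays of the same line correlated at 0.983 to 0.989 in Met1 and 0.962 to 0.980 in DB7, and arrays of different lines at 0.886 to 0.905. The luminal keratin gene Krt18 and the epithelial adhesion gene Epcam were far above the array median on all 7 arrays (11.35 to 12.73 and 11.42 to 12.14). The arrays DB7 1 and DB7 4 stood apart in B cell RNA, with Jchain, the immunoglobulin joining chain, at 8.33 and 9.33 there and at 5.08 to 5.88 on the other 5 arrays. Fewer cells of a type and less RNA per cell cannot be told apart in these bulk samples.

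The set did not move as a block. Hspb1 and Hspa1b were higher in Met1, Hspd1, Hspe1 and Hsph1 were lower in Met1, and Hspa8, Hsp90aa1 and Dnaja1 were not called. Of the 18 tested probe sets, 5 (27.8%) were called higher in Met1 and 5 (27.8%) lower, while 13.4% and 17.6% of all 11704 tested probe sets were called in these directions and 31% in either. Values of the lines did not overlap in 10 of the 18 (55.6%), against 39.4% of all tested probe sets, and these were the 10 called. By the brightest tested probe set of each gene, 2 of the 8 genes were called higher and 3 lower, against 13% and 17.9% of 7482 genes. The median difference over the 18 was 0.08, against -0.04 over all tested probe sets. Probe sets of a gene share its RNA and are not independent. Without DB7 1 and DB7 4 the counts were 5 higher and 6 lower.

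**Figure D1:**
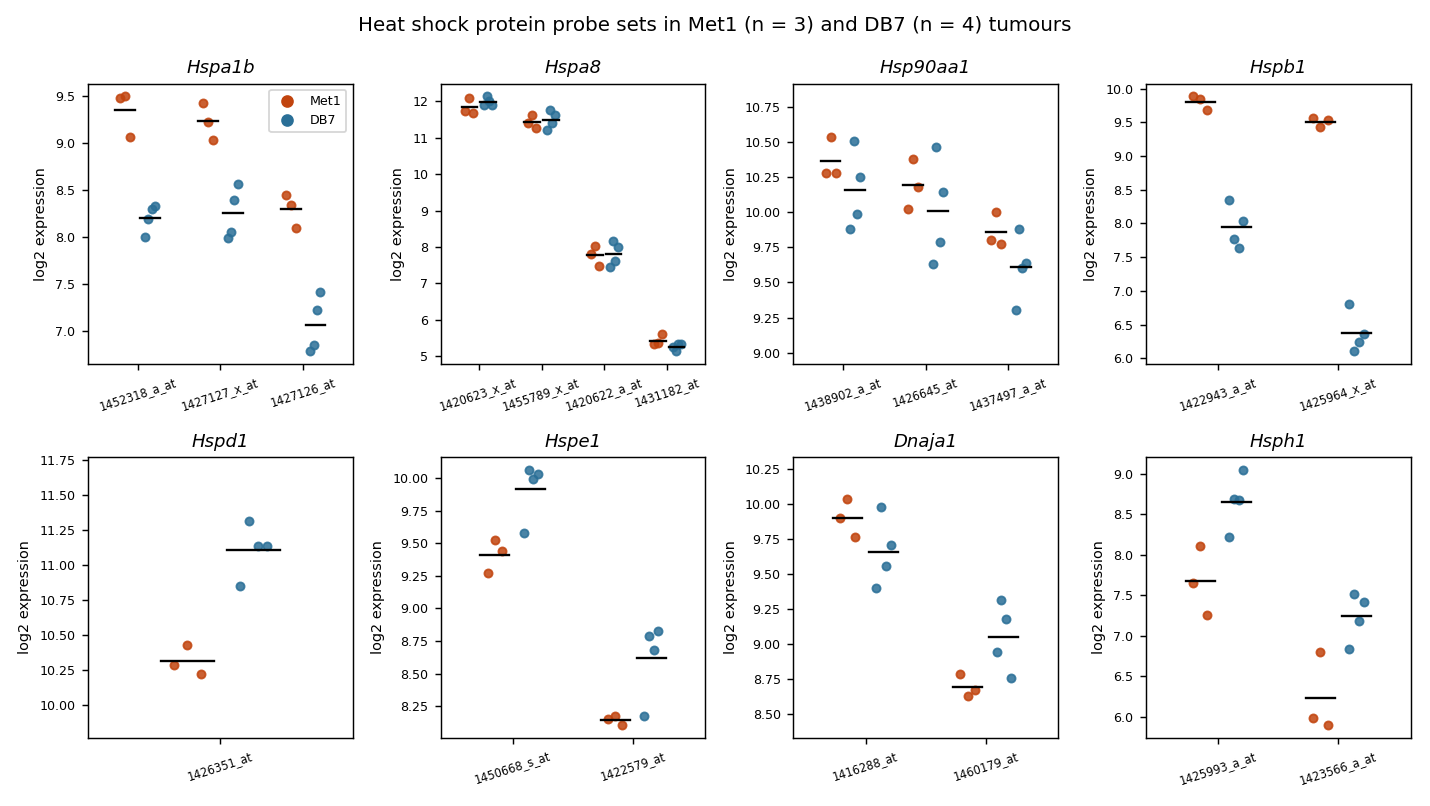
Log2 expression (vertical axis, a separate range for each gene) of the 19 probe sets (horizontal axis) of 8 heat shock protein genes in the 3 Met1 arrays (orange) and 4 DB7 arrays (blue), with the mean of each line as a black bar. The lines do not overlap in any probe set of Hspb1, Hspa1b, Hspd1, Hspe1 and Hsph1, although DB7 1 is level with Met1 at Hspe1 1422579_at, and they overlap in every probe set of Hspa8, Hsp90aa1 and Dnaja1.

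Hspb1 showed the widest gap. It encodes HSP25, the mouse form of the small heat shock protein HSP27, which binds unfolding proteins without using ATP and associates with actin. At probe set 1425964_x_at it measured 9.56, 9.44 and 9.53 in Met1 and 6.80, 6.10, 6.24 and 6.36 in DB7. The 3 Met1 values lay close together, while DB7 1 was the highest of the DB7 arrays and still far below Met1. The difference was 3.13 (SE 0.15, 8.78-fold, n = 3 and 4; limma, adjusted p = 2.92e-06). At the other probe set, 1422943_a_at, Hspb1 measured 9.88, 9.85 and 9.68 in Met1 and 8.34, 7.77, 7.63 and 8.04 in DB7. There the difference was 1.86 (SE 0.16, 3.63-fold; adjusted p = 6.64e-05). Both probe sets put every Met1 array above every DB7 array, but they give folds of unequal size, and the first lay below the array median on 3 of the 4 DB7 arrays, where such summaries have little range. Both calls held under each alternative that kept the probe set, with differences from 3.04 to 3.34 and from 1.75 to 2.10.

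The stretch before the start of Hspb1 is shown because it holds pairs of the units that make up heat shock elements. Such elements are alternating units GAA and TTC spaced by any pair of bases. The search covered pairs of units (GAANNTTC or TTCNNGAA) and runs of 3 units (GAANNTTCNNGAA or TTCNNGAANNTTC) in the 250 bases before each start in RefSeq's promoters of build GRCm38.p6. Each of these motifs reads the same on both strands or turns into the other form, and a run of 3 units contains 2 overlapping pairs. A pair occurred in 14.5% of 27025 genes and a run of 3 units in 0.514%. Hspb1, at chr5:135887669-135887918 on the plus strand, has 2 pairs, in capitals, which end 110 and 90 bases before the start:
Hspb1: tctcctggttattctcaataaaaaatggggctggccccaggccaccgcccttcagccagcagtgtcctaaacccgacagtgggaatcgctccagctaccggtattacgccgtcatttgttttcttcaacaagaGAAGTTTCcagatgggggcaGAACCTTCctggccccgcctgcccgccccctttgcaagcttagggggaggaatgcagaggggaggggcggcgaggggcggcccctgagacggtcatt

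Of the 10 listed genes, 6 had an entry among these promoters, and each of the 6 had at least 1 pair in at least 1 of its windows. In 2 of them, Hspd1 and Hspe1, there was a run of 3 units. A match is a description of the letters and does not show that HSF1 was bound there in these tumours.

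Hspa1b, the second gene higher in Met1, encodes the stress-inducible HSP70, which is scarce in most unstressed tissues and among the most heat-responsive genes known. Its probe set 1452318_a_at measured 9.48, 9.50 and 9.07 in Met1 and 8.0, 8.19, 8.30 and 8.33 in DB7. The lowest Met1 array, Met1 3, still lay above every DB7 array. The difference was 1.14 (SE 0.13, 2.21-fold; limma, adjusted p = 0.000301). At 1427126_at Hspa1b measured 8.45, 8.34 and 8.10 in Met1 and 6.79, 6.86, 7.23 and 7.42 in DB7, a difference of 1.22 (SE 0.16, 2.33-fold; adjusted p = 0.000632). At 1427127_x_at the difference was 0.97 (SE 0.16, 1.96-fold; adjusted p = 0.00179). The 3 probe sets thus gave folds of similar size, and these calls held under each alternative that kept the probe set, with differences from 0.85 to 1.34 over the 3.

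Hspa1b has a near-identical neighbour, Hspa1a, so the signal at these probe sets may come from either gene. Over the 250 bases before their starts, 247 were the same when both were laid side by side without gaps. The only probe set annotated to Hspa1a alone, 1452388_at, lay below the median on all 7 arrays (5.49 to 5.69) and was not tested. Before Hspa1b, at chr17:34959239-34959488 on the minus strand, 1 pair of units, in capitals, ends 97 bases from the start, and it is shown as the promoter of the most inducible gene of the set:
Hspa1b: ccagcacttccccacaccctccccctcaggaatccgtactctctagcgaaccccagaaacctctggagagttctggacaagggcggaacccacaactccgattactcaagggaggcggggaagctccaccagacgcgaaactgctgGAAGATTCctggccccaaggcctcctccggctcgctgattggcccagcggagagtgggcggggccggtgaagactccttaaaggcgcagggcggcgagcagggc

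Hsph1 went the other way. It encodes HSP110, the nucleotide exchange factor that resets HSP70 and works with it in pulling proteins out of aggregates, and like Hspa1b it is induced by heat. Probe set 1425993_a_at measured 7.66, 8.11 and 7.25 in Met1 and 8.22, 8.68, 8.67 and 9.05 in DB7. The gap between the lines was narrow, as Met1 2 reached 8.11 and DB7 1 fell to 8.22. The difference was -0.98 (SE 0.23, 1.98-fold lower in Met1; limma, adjusted p = 0.0106). Probe set 1423566_a_at of Hsph1 measured 5.98, 6.80 and 5.90 in Met1 and 6.84, 7.52, 7.18 and 7.42 in DB7, a difference of -1.01 (SE 0.23; adjusted p = 0.0106). It passed the filter through the 4 DB7 arrays, where it is high, and Met1 2, and lay below the median on the other Met1 arrays. Its call was lost without Met1 1 (difference -0.89, adjusted p = 0.0501). The spread of Hsph1 between the Met1 arrays (SD 0.43 and 0.50) exceeded that of each other called probe set of the set in that line. The sequence before Hsph1, at chr5:149636337-149636586 on the minus strand, is given because this HSF1 target fell where Hspb1 and Hspa1b rose, and it too holds a pair of units, in capitals, that ends 26 bases before the start:
Hsph1: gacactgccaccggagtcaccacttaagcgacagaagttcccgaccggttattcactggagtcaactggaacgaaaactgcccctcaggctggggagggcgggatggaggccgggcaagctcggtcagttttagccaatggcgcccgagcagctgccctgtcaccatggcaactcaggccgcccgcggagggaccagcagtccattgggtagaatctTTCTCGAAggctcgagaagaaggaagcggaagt

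**Figure D2:**
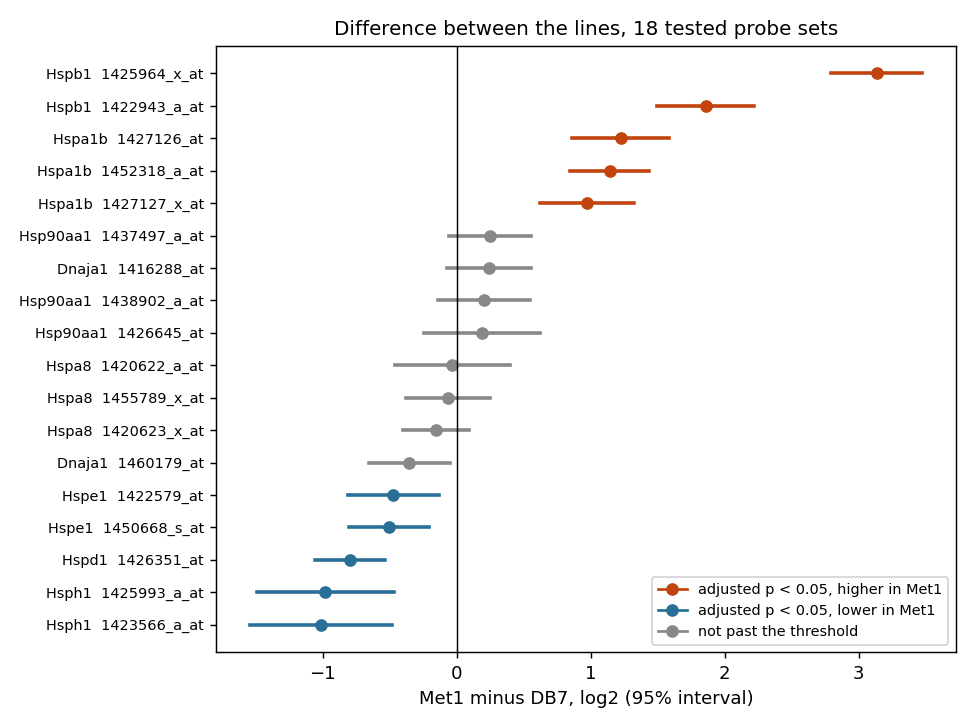
Met1 minus DB7 difference on the log2 scale (horizontal axis, points) with its 95% interval from limma (lines) for the 18 tested probe sets (vertical axis), coloured orange where called higher in Met1, blue where called lower and grey where not called. Hspb1 stands at 1.86 and 3.13, Hspa1b at 0.97 to 1.22, Hspd1 and Hspe1 at -0.79 to -0.47 and Hsph1 near -1.0.

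The mitochondrial chaperonin genes were lower in Met1. Hspd1 encodes HSP60, the barrel of the chamber in which imported proteins fold. Its probe set 1426351_at measured 10.29, 10.43 and 10.22 in Met1 and 10.85, 11.31, 11.13 and 11.13 in DB7. Every Met1 array lay below every DB7 array, with DB7 1 the lowest of its line. The difference was -0.79 (SE 0.11, 1.73-fold lower in Met1; limma, adjusted p = 0.00106). That call of Hspd1 held under each alternative, with differences from -0.91 to -0.73.

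Hspe1 encodes HSP10, the lid that closes the HSP60 chamber. At probe set 1450668_s_at it measured 9.27, 9.53 and 9.44 in Met1 and 9.58, 10.06, 9.997 and 10.04 in DB7. DB7 1 sat just above the Met1 values, and the other DB7 arrays were close together. The difference was -0.50 (SE 0.13, 1.42-fold lower in Met1; limma, adjusted p = 0.0193). At 1422579_at Hspe1 measured 8.15, 8.17 and 8.10 in Met1 and 8.18, 8.79, 8.68 and 8.82 in DB7, a difference of -0.47 (SE 0.15; adjusted p = 0.0408), and DB7 1 was level with Met1. These calls were less stable than that of Hspd1. The first was lost without Met1 1 (adjusted p = 0.0808), Met1 3 (0.0573) or DB7 3 (0.0516), and the second in 10 of 18 alternatives, among them without Met1 1, Met1 2 or Met1 3 (0.104, 0.102 and 0.123) and without DB7 2, DB7 3 or DB7 4 (0.0882, 0.0931 and 0.0905). Without DB7 1 and DB7 4 both calls of Hspe1 stood.

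Hspd1 and Hspe1 lie head to head on chromosome 1 and are known to be transcribed in opposite directions from a shared promoter. That promoter is shown because the pair fell together, at chr1:55087898-55088147 on the plus strand, read toward Hspe1. The 18 bases in capitals, at chr1:55088059-55088076, hold 3 overlapping pairs and 2 overlapping runs of 3 units. They end 72 bases before the start of Hspe1 and, on the other strand, 127 bases before an annotated start of Hspd1:
Hspe1: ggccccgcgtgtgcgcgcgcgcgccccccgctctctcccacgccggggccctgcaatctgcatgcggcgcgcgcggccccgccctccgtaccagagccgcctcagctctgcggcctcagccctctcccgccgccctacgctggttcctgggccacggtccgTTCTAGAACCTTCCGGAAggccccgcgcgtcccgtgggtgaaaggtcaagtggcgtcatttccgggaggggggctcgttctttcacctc

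The other tested genes next to this pair on either side, Sf3b1, a splicing factor gene, and Mob4, were also called lower in Met1 (differences -0.43, SE 0.10, and -0.45, SE 0.14; limma, adjusted p = 0.00923 and 0.0398). The call of Mob4 was lost in 7 of 18 alternatives, among them without Met1 1, Met1 2 or Met1 3 (adjusted p = 0.115, 0.103 and 0.103) or DB7 1 (0.0722). Of the 10 nearest tested genes around Hspd1, 4 were called lower and 0 higher by limma (Hspe1 among the 4), with a median of -0.29. Of all tested genes 17.9% were called lower and 13% higher. Whether the position had a part in the result was not tested.

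Other genes of mitochondrial protein folding and quality control, from lists of related genes, were measured beside them. Hspa9, the mitochondrial HSP70 that pulls proteins in through the inner membrane, measured 8.88, 8.77 and 8.68 in Met1 and 9.03, 9.50, 9.29 and 9.30 in DB7. This was a difference of -0.50 (SE 0.12; limma, adjusted p = 0.0111), and of the other tested probe sets of Hspa9 1 was called lower and 1 was not called (-0.56 and -0.22). Without Met1 3 the call of Hspa9 was lost (adjusted p = 0.0549). Grpel2, a nucleotide exchange factor of that HSP70, was lower by the same test (difference -0.46, SE 0.10; adjusted p = 0.0066). Trap1, Grpel1 and Dnaja3, also genes of mitochondrial protein folding, were not called (0.17, -0.09 and 0.15; limma, adjusted p = 0.491, 0.647 and 0.484). Among 10 tested genes of mitochondrial proteases and prohibitins, 4 (40%) were called lower and 1 (10%) higher, with a median of -0.23. The shares of all tested genes were 17.9% and 13%. Clpp, the protease of the matrix, was lower (-0.53, SE 0.08; adjusted p = 0.00124), as were Lonp1 (-0.32, SE 0.09; adjusted p = 0.0243) and Htra2 (-0.44, SE 0.13; adjusted p = 0.03). The 1 higher gene was Oma1, a protease of the inner membrane (0.44, SE 0.12; adjusted p = 0.0246), which passed the filter through its Met1 values alone. Of these protease genes Clpp kept its call in every alternative run. Htra2 lost its call in 8 of 17 alternatives, among them without any 1 array other than DB7 1 (adjusted p = 0.0518 to 0.125). Lonp1 lost it without Met1 2 (0.105), Met1 3 (0.0917) or DB7 3 (0.0576), and Oma1 without Met1 1 (0.0575) or Met1 3 (0.108).

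Hspa8, Hsp90aa1 and Dnaja1, chaperones of the cytosol that most cells hold in large amounts, were not called. Hspa8 encodes HSC70, the constitutive HSP70, which also strips the clathrin coat from vesicles. Its brightest probe set, 1420623_x_at, measured 11.73, 12.07 and 11.69 in Met1 and 11.91, 12.13, 11.99 and 11.91 in DB7. The lines overlapped, and the difference was -0.16 with a 95% interval from -0.40 to 0.09 (limma, adjusted p = 0.313). The intervals of Hspa8 at 1455789_x_at and 1420622_a_at ran from -0.38 to 0.25 and from -0.46 to 0.39. The fourth probe set, 1431182_at, lay below the median on all arrays (5.14 to 5.61) and was not tested.

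Hsp90aa1 encodes HSP90 alpha, the heat-inducible of the cytosolic HSP90 proteins. Its brightest probe set, 1438902_a_at, measured 10.28, 10.54 and 10.28 in Met1 and 9.88, 10.51, 9.99 and 10.25 in DB7. Met1 2 and DB7 2 were highest in their lines and DB7 1 was lowest. The difference was 0.21 with a 95% interval from -0.14 to 0.55 (limma, adjusted p = 0.345). At 1426645_at and 1437497_a_at the differences of Hsp90aa1 were 0.19 and 0.25, with intervals from -0.25 to 0.62 and from -0.05 to 0.56. Hsp90aa1 lies on chromosome 12 between tested genes that were called higher in Met1: Dync1h1, the dynein heavy chain (0.48, SE 0.12; adjusted p = 0.0138), and Wdr20 (0.73, SE 0.15; adjusted p = 0.00625). Of the 10 nearest tested genes 7 were called higher and 0 lower, with a median of 0.54. Of all tested genes 13% were called higher and 17.9% lower. Whether the position of Hsp90aa1 had a part in its values was not tested. The call of Dync1h1 was lost without Met1 1 or Met1 2 (adjusted p = 0.0573 and 0.0521).

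Dnaja1 encodes a J domain protein that delivers unfolded proteins to HSP70. Its probe sets pointed in opposite directions. At 1416288_at Dnaja1 measured 9.90, 10.04 and 9.77 in Met1 and 9.40, 9.98, 9.55 and 9.71 in DB7, a difference of 0.24 (95% interval -0.07 to 0.55; limma, adjusted p = 0.221). At 1460179_at it measured 8.79, 8.63 and 8.67 in Met1 and 8.94, 9.31, 9.18 and 8.76 in DB7, a difference of -0.35 (95% interval -0.65 to -0.05; adjusted p = 0.0743). The second was called without DB7 4, which overlapped with Met1 (difference -0.45, adjusted p = 0.0219), without DB7 1 and DB7 4 (-0.55, adjusted p = 0.00507) and with array weights (adjusted p = 0.0328). Dnaja1 has a pair of units 117 bases before the first of its 3 annotated starts.

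Within each line the same array was often the highest or the lowest across the set. By the brightest probe set of each gene, DB7 1 was the lowest DB7 array for 7 of the 8 genes and for 15 of the 18 tested probe sets, and it was lowest for 35.1% of all tested probe sets. Relative to the mean of DB7, DB7 1 lay at -0.27 for Hsp90aa1, -0.26 for Hspd1 and -0.44 for Hsph1. Hspb1 went the opposite way, with DB7 1 the highest array of its line at both probe sets (0.40 and 0.42 above the mean). Met1 2 was the highest Met1 array for 7 of the 8 genes, again with Hspb1 as the exception, and for 13 of the 18 probe sets, while it was highest for 22.6% of all tested probe sets. For Hsph1 it lay 0.44 and 0.57 above the mean of Met1. DB7 2 was the highest DB7 array for 11 of the 18 probe sets, against 30.5% of all. It lay below the mean of DB7 at all 3 probe sets of Hspa1b and at both of Hspb1 (-0.17 and -0.27). Dnaja1 at 1460179_at also departed from the others, with DB7 4 its lowest DB7 array.

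**Figure D3:**
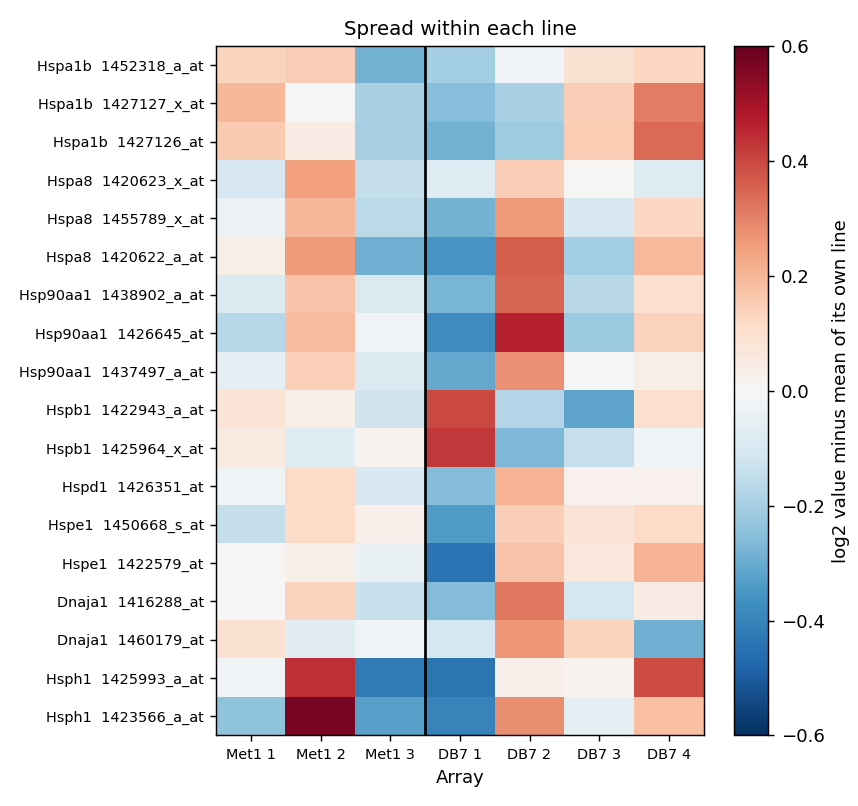
Log2 value minus the mean of its own line (colour scale, red above and blue below) for the 18 tested probe sets (rows) on the 7 arrays (columns, Met1 left of the black line). Met1 2 and DB7 2 are mostly red and DB7 1 mostly blue. DB7 2 is not red in the Hspa1b and Hspb1 rows, and in the Hspb1 rows DB7 1 is 0.40 and 0.42 above the mean of DB7.

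Markers of other cell types differed between the same arrays. DB7 1 had the highest mean of the DB7 arrays over 12 fibroblast genes (9.24, against 7.74 to 8.67) and over 9 macrophage genes (9.39, against 8.38 to 9.04). Met1 2 likewise had the highest Met1 mean over the fibroblast genes (9.19, against 8.57 and 8.92), the macrophage genes (9.34, against 8.92 and 9.22) and 5 adipocyte genes (7.25, against 5.78 and 6.74). Over 7 endothelial genes DB7 1 was the highest of its line (7.22), while Met1 3 (7.09) lay above Met1 2 (7.04). Most of the heat shock set was lowest on DB7 1 within DB7 and highest on Met1 2 within Met1. Over 17 proliferation genes DB7 1 had the lowest mean of its line (8.33, the others 8.57 to 8.69). Over 8 skeletal muscle genes, a tissue rich in small heat shock proteins, the means were 5.26 to 5.39 on all arrays, and 6 of these, with Acta1, Ckm and Myh4 among them, lay below the median on each array. Of the tested muscle genes Mb, the myoglobin gene, was called higher in Met1 (0.52, SE 0.12; limma, adjusted p = 0.0101) and Tnni2 was not called. Mb passed the filter through its Met1 values alone. The part of these other cell types in the spread of the heat shock genes was not tested.

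Between the lines, proliferation genes were lower in Met1, as 15 of 15 tested genes were called lower with a median of -0.98. Among all tested genes 17.9% were called lower. Aurkb, which is in this list, passed the filter through its DB7 values alone. Birc5, which encodes survivin, a protein of dividing cells, measured 8.80, 8.70 and 8.62 in Met1 and 10.42, 10.96, 10.65 and 10.80 in DB7 (limma, adjusted p = 1.32e-05). Luminal epithelial genes were called lower for 6 of 8, with Krt18 at a difference of -1.01 (SE 0.11). Among 10 tested fibroblast genes limma called 0, and 2, Thy1 and Col6a2, had an unadjusted p under 0.05, while 8 of the 10 were called higher without DB7 1 and DB7 4. Among 9 macrophage genes 1 was called higher, Cd14, a receptor for bacterial lipopolysaccharide (1.12, SE 0.14; limma, adjusted p = 0.00055), and 7 without DB7 1 and DB7 4. Of 5 endothelial genes limma called 0, and 2 were called higher without those arrays. The fibroblast mean was 9.24 on DB7 1 and 8.67 on DB7 4. On DB7 2 and DB7 3 it was 8.07 and 7.74. The macrophage and endothelial means of DB7 1 and DB7 4 also lay above those of DB7 2 and DB7 3. Leaving out DB7 1 and DB7 4 thus lowers DB7 for these lists, and the added calls cannot show a difference between the lines. The part of proliferation and of these cell types in the differences of the heat shock genes was not tested. Tumours were frozen after the animals had been killed under anaesthesia. Of 13 tested immediate early genes, which respond fast to stress and handling, 1 (7.69%) was called higher and 2 (15.4%) lower. These shares were 13% and 17.9% among all tested genes. Fos was higher in Met1 (1.39, SE 0.14; adjusted p = 0.000156), and Nr4a1 and Atf3 were lower (-0.98, SE 0.09, and -0.46, SE 0.11; adjusted p = 8.34e-05 and 0.0121), although Atf3 lost its call without Met1 2 or Met1 3 (0.0542 and 0.0561).

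The wider chaperone network of cytosol and mitochondria was examined through 8 lists that hold 87 further genes. Of 68 tested genes, 22 (32.4%) were called lower in Met1 and 7 (10.3%) higher, beside 17.9% and 13% of all tested genes. The median difference was -0.13, against -0.04 over all tested genes. Without DB7 1 and DB7 4, 20 were called lower and 6 higher. The count of lower calls ranged from 10 to 23 when single arrays were left out, with 10 without Met1 2 or Met1 3, 12 without DB7 3, and 14 without Met1 1 or DB7 4. Of the called genes, 13 had further tested probe sets. Of these 19 further probe sets 9 were called in the same direction, 9 were not called and 1, of Hspa4, was called in the opposite direction.

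The cytosolic chaperonin is the folding chamber for actin and tubulin, and prefoldin hands it new chains. Of 13 tested genes of both, limma called 7 (53.8%) lower and 0 higher, and 6 were not called. Their median was -0.27. Among all tested genes 17.9% were called lower and 13% higher. Tcp1, the first subunit of the chaperonin, measured 10.16, 10.18 and 10.23 in Met1 and 10.50, 10.75, 10.80 and 10.77 in DB7. Its difference was -0.52 (SE 0.09; limma, adjusted p = 0.00318). Cct6a, another subunit, differed by -0.52 (SE 0.09; adjusted p = 0.00335) and Cct7 by -0.41 (SE 0.12; adjusted p = 0.0328). The other tested probe set of Cct6a was not called (-0.37), and that of Cct7 was called lower (-0.47). Cct7 lost its call in 7 of 18 alternatives, among them without Met1 1, Met1 2 or Met1 3 (0.0812, 0.109 and 0.0939) and without DB7 2 or DB7 3 (0.0563 and 0.0599). Pfdn1, a prefoldin subunit, differed by -0.54 (SE 0.09; adjusted p = 0.00181) and passed the intensity filter through its DB7 values.

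Of 6 other tested genes of the HSP70, HSP110 and HSP90 families 4 (66.7%) were called lower and 1 (16.7%) higher. The shares of all tested genes were 17.9% and 13%. Trap1 was the 1 not called (0.17). Besides Hspa9 the lower ones included Hspa4l (-0.45, SE 0.11; adjusted p = 0.0127 in limma) and Hspa4 (-0.39, SE 0.11; adjusted p = 0.0277). Hspa4l lost its call without Met1 2 or Met1 3 (0.0591 and 0.0506), and Hspa4 without Met1 1 (0.0754), Met1 2 (0.115), DB7 3 (0.0572) or both DB7 1 and DB7 4 (0.0511). Hspa4 and Hspa4l encode relatives of HSP110. The direction of Hspa4 rests on its brightest probe set, since another, 1416146_at, was called higher in Met1 (0.57). Hspa2, an HSP70 best known from male germ cells, was higher in Met1, at 7.93, 7.76 and 7.53 against 6.49, 6.52, 6.81 and 6.64. The difference of Hspa2 was 1.12 (SE 0.12, 2.18-fold; adjusted p = 0.000168).

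HSP90 co-chaperones were evenly split, with 3 (25%) of 12 tested genes called higher and 3 (25%) lower. Among all tested genes these shares were 13% and 17.9%. Fkbp5, an immunophilin of steroid receptor complexes that glucocorticoids induce, was 1.99-fold higher in Met1 (0.99, SE 0.18; limma, adjusted p = 0.00349). Its relative Fkbp4, which occupies the same place in those complexes, was lower (-0.65, SE 0.14; adjusted p = 0.00714), although its other probe set was not called (-0.13). Ahsa1, the activator of the HSP90 ATPase, was higher (0.42, SE 0.09; adjusted p = 0.00625). Stip1, which joins HSP70 to HSP90, was lower, at 7.79, 7.84 and 7.68 in Met1 against 8.10, 8.23, 8.18 and 8.42 in DB7 (-0.47, SE 0.09; adjusted p = 0.00546).

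Of 14 tested J domain proteins 3 (21.4%) were called lower and 1 (7.14%) higher, near the 17.9% and 13% of all tested genes. Dnajc21, a factor of ribosome assembly, differed by -1.01 (SE 0.14; limma, adjusted p = 0.001), Dnajc9, a histone chaperone, by -0.71 (SE 0.11; adjusted p = 0.00177), Dnaja4 by -0.31 and Dnajb2 by 0.28. Dnajc21 and Dnaja4 passed the filter through their DB7 values alone. Dnaja4 lost its call in 9 of 17 alternatives (adjusted p = 0.063 to 0.101 without any 1 array other than DB7 2, and 0.153 without both DB7 1 and DB7 4). Dnajb2 lost it in 8 of 18, among them without Met1 1 (0.111), Met1 3 (0.11), DB7 1 (0.0611), DB7 4 (0.0713) or both DB7 1 and DB7 4 (0.143). Of 10 HSP70 partners, Grpel2 was the 1 called, and St13 (-0.27), Bag1 (-0.22) and Stub1 (-0.25) were not. Of the small heat shock proteins 2 of 6 measured were tested. Cryab, alpha B-crystallin, which forms mixed assemblies with the product of Hspb1, was higher in Met1 at 7.76, 7.23 and 7.04 against 6.29, 5.72, 5.92 and 6.36 (1.27, SE 0.20, 2.41-fold; adjusted p = 0.00177). It passed the filter through its Met1 values alone. Hspb2, its neighbour in the genome, was not called (0.04, SE 0.10). Of the regulators of HSF1, Hsbp1, which binds heat shock factors, was not called (-0.02, SE 0.07), and Hsf2 and Hsf4 lay below the median on every array.

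**Figure D4:**
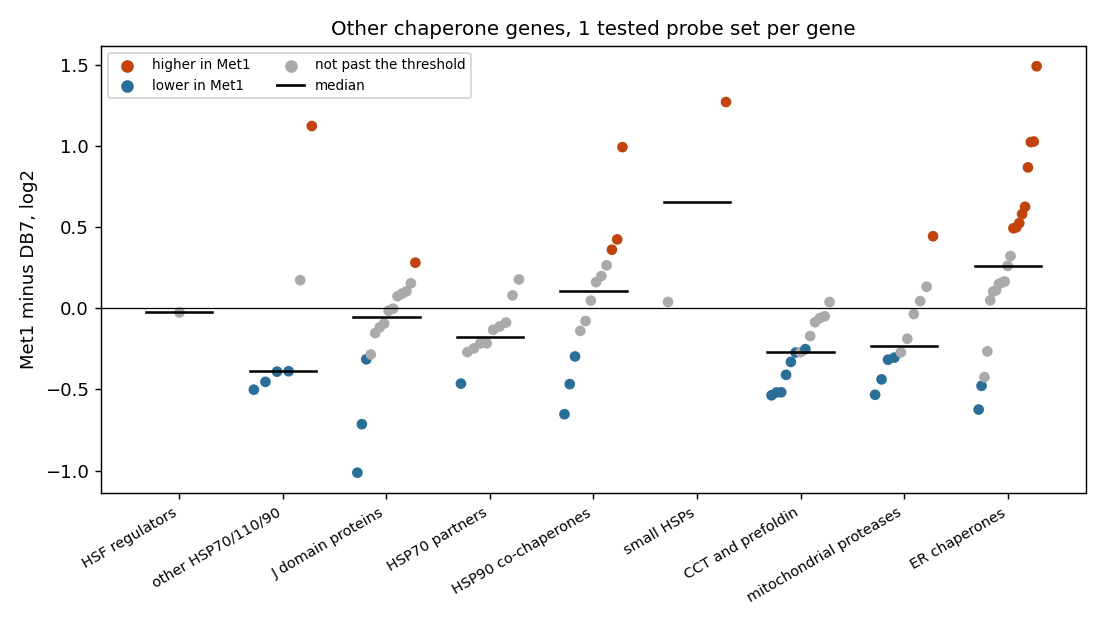
Met1 minus DB7 difference on the log2 scale (vertical axis) for each tested gene of 9 chaperone lists (horizontal axis), 1 probe set per gene, with the median of the list as a black bar. Orange points were called higher in Met1, blue points lower and grey points were not called. The mitochondrial proteases and the chaperonin list have medians of -0.23 and -0.27 and the endoplasmic reticulum list one of 0.26.

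Chaperones of the endoplasmic reticulum, which fold secreted proteins, were measured for comparison. Their list also holds transcription factors of the unfolded protein response. Of 21 tested genes 9 (42.9%) were called higher in Met1 and 2 (9.52%) lower, with a median of 0.26. Among all tested genes these shares were 13% and 17.9%. P4hb, protein disulfide isomerase, was 2.04-fold higher in Met1 (1.03, SE 0.08; limma, adjusted p = 3.2e-05), Dnajb9 2.81-fold (1.49, SE 0.14; adjusted p = 9.58e-05) and Sdf2l1 1.82-fold (0.87, SE 0.10; adjusted p = 0.000296). Xbp1, a transcription factor of the unfolded protein response, was 2.03-fold higher (1.02, SE 0.17; adjusted p = 0.00201). The 2 lower genes were Dnajc3 (-0.62, SE 0.11; limma, adjusted p = 0.00297) and Ddit3 (-0.48, SE 0.10; adjusted p = 0.006). The difference between this list and those of the other compartments was not tested.

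Over the 7 arrays the genes whose profile was most like that of Hspb1, the gene of the set with the largest SD, were Tceal8 (Pearson r = 0.997), Pros1 (0.996), which encodes the anticoagulant protein S, and Zfp36l2 (0.995), an RNA-binding protein gene. In Met1 and DB7 they had means of 8.21 and 6.01, of 7.86 and 5.55, and of 10.08 and 8.89. Tceal8 and Pros1 passed the filter through their Met1 values alone and lay below the median on every DB7 array. The likeness is a description that the gap between the lines dominates. The nearest tested genes on either side of Hspb1 on chromosome 5, Mdh2 and Ywhag, were not called (-0.21, SE 0.09, and 0.11, SE 0.08). Of the 10 tested genes nearest to Hspb1 limma called 1 lower and 0 higher, beside 17.9% and 13% of all. Beside Hsph1, Brca2 was called lower (-0.58, SE 0.16), a call lost in 5 of 17 alternatives, and Alox5ap was not called (0.25, SE 0.14). Beside Hspa8, Sorl1 was called lower (-1.02, SE 0.09) and Vwa5a was not called (0.19, SE 0.10). Beside Hspa1b, Neu1 was called higher (0.45, SE 0.10) and Lsm2 lower (-0.50, SE 0.10). Ndufb6 and Smu1, beside Dnaja1, were not called (-0.25, SE 0.14, and 0.10, SE 0.10). Of the 10 tested genes nearest to Dnaja1, 4 were called higher and 1 lower. Around Hspa1b 2 of 10 were called higher and 4 lower. Around Hsph1 0 of 8 were called higher and 3 lower, and around Hspa8 0 of 10 and 2. The part of position in these results was not tested.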

How the data were processed

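Total RNA was labelled with biotin by the standard Affymetrix procedure, per the labels' protocols. The authors deposited 1 value per probe set and array, taken here as log2 from its range, since the log base is not given in the sources used here. RMA and MAS5 are named, per the submitters' processing notes, without their roles. The array's annotation by GEO gave a single gene symbol to 20380 of the 22626 non-control probe sets, and 20351 of these were found in RefSeq by their Entrez identifier.

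Met1 and DB7 were set against each other in a 2-group model of limma (version 3.58.1, under R 4.3.3) with variances moderated along a trend on intensity, fitted to all 11704 probe sets that passed the filter, with Benjamini-Hochberg adjustment over all of them. A gene of the wider lists was represented by its brightest tested probe set. The genes of the set and all lists, names and alternatives were chosen with earlier results of these data known. Genes named from each chaperone list are up to 4 with the smallest p, from the other lists up to 3, and the nearest tested genome neighbours. Epcam, Jchain, Dnajc3, Ddit3, Trap1, Grpel1, Dnaja3 and Aurkb were named outside this rule, after their values were seen. Alternatives covered normalization, filter, variance model, a minimum fold of 1.2, probe sets open to cross-hybridisation, the replicate number as a block, each array left out, and DB7 1 and DB7 4 left out. Precision is limited by having 3 and 4 arrays.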

Additional observations from a re-analysis of the deposited data

Results flagged for a closer look

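Among 93 probe sets of named genes, 7 had a DB7 value set apart from the other 3 by more than Dixon's 95% limit for 4 samples. Chance flags about 1 in 20 groups. In the heat shock set this was Hspe1 at 1450668_s_at, where DB7 1 measured 9.58 and the others 9.997 to 10.06. In the wider lists, Dnajc21 was high in DB7 2 (7.79, the next value 7.32), and DB7 2 was low for Dnaja4 (6.57, the next 6.86), Nr4a1 (10.07, the next 10.23) and Cldn4 (8.39, the next 8.93). Oma1 was low in DB7 3 (6.10, the next 6.50) and Atf3 in DB7 4 (7.39, the next 7.71).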

How the results depend on the processing

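Of 317 values of the heat shock probe sets under alternatives, 292 kept their direction and their side of the threshold, 15 lost the call, 3 gained it and 7 changed sign. The calls of Hspb1, Hspa1b and Hspd1 held throughout. The 5 higher calls stayed at 5 with each array left out, and the 5 lower ones ranged from 2 to 5 (2 without Met1 1, 3 without Met1 3 or DB7 3). With a minimum of 1.2-fold the lower calls of the set numbered 3, all calls 1392, and those of the other chaperone genes 3 higher and 4 lower. This stricter test asks for more than a difference from 0. Leaving out probe sets open to cross-hybridisation gave 3 higher calls in the set, because 2 of the 5 probe sets were removed. A filter on all 7 arrays gave 4 higher calls among other chaperone genes, with fewer genes tested. Arrays of the lines with the same number did not deviate together (correlations -0.17, -0.05 and 0.02 over probe sets). With the replicate block 12 other chaperone genes were called lower and 5 higher. The set then had 5 higher and 4 lower calls, and all calls numbered 2803. Only DB7 has an array numbered 4, so under the block DB7 4 did not enter the differences. They equal those without DB7 4 (Hspe1 1422579_at at -0.41 in both), so the block is no separate check on them. With each array left out, all calls ranged from 2468 to 3802, and other chaperone genes from 4 to 7 higher and from 10 to 23 lower.

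Every change of sign concerned a gene that was not called. Hspa8 1420622_a_at reached 0.0038 under median centring and 0.031 with the replicate block, and Hsbp1 0.014 under median centring. With arrays left out, Hspa8 ranged from -0.16 to 0.11 at 1420622_a_at and from -0.16 to 0.0198 at 1455789_x_at, Hspb2 from -0.0295 to 0.10, Tnni2 from -0.14 to 0.0074 and Adipoq from -0.70 to 0.80. Smu1, beside Dnaja1, was at -0.0012 without DB7 1 and DB7 4.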
